A study of Mus musculus with 10 samples.

Results

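Interferon-stimulated genes, the genes that cells switch on after they sense interferon, were followed in striatum, the deep forebrain region most affected in Huntington's disease. The 49 genes are a list of known interferon-stimulated genes, chosen by name with earlier results of these data known. All 49 were found among the 47632 gene rows of the deposited table, of which 29024 had a value above 0 in at least 1 library. Gene expression was measured by sequencing of striatal RNA from R6/2 mice, labelled hemizygous for the transgene, and from isogenic wild-type control mice, all 11 weeks old at harvest, with 5 libraries in each group. R6/2 mice carry a transgene with the first exon of human huntingtin and an expanded CAG repeat, driven by human huntingtin promoter sequence, beside their own intact huntingtin genes, so they model a fragment of the mutant protein and not the full-length gene. The sources used here give neither the strain background nor the sex of the animals, nor whether libraries came from separate animals. Values are FPKM (fragments per kilobase of transcript, scaled to the total of mapped fragments), which adjusts for transcript length and library size. Their sum over all genes still differed between libraries, from 1.55e+06 in R6/2 3 to 2.31e+06 in Control 5.

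Interferons are secreted proteins that bind receptors on nearby cells. The type I receptor, made of Ifnar1 and Ifnar2, acts through the kinases Jak1 and Tyk2, and the interferon-gamma receptor, made of Ifngr1 and Ifngr2, acts through Jak1 and Jak2. The kinases phosphorylate STAT proteins. Stat2 and Irf9 are part of a complex that binds the interferon-stimulated response element, while interferon-gamma acts through the gamma-activated sequence. The induced proteins block entry, translation or replication of viruses. In the brain, microglia, endothelial cells, astrocytes and neurons can all respond to interferon.

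The DNA element through which type I interferon acts was looked for upstream of the members. Stretches of 8 promoters that hold a match are printed, and their genes differ in whether the 2 groups of libraries overlapped. Ifit1, Ifit3, Ifit3b, Igtp and Ddx60 had every R6/2 library above every control, whereas Isg15, Rsad2 and Bst2 did not. Sequences are from RefSeq (build GRCm38.p6), 5′ to 3′ on the strand of the gene, and capitals mark each match to the core of the element, which is GAAA, any 2 bases and GAAA again, or on the other strand TTTC, any 2 bases and TTTC.
Ifit1 (chr19:34640760-34640838, + strand): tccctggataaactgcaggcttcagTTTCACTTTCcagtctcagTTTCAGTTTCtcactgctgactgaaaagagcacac
Ifit3 (chr19:34583348-34583441, + strand): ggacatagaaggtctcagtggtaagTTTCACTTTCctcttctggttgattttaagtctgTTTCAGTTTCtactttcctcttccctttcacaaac
Ifit3b (chr19:34607744-34607837, + strand): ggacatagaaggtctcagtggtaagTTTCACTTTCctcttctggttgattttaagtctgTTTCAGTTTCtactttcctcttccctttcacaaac
Igtp (chr11:58199497-58199555, + strand): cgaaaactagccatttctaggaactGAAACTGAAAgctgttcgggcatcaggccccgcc
Ddx60 (chr8:61928009-61928086, + strand): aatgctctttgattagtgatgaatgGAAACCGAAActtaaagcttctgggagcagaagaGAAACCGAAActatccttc
Isg15 (chr4:156200850-156200921, - strand): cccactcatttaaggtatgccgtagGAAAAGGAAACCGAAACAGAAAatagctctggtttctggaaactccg
Rsad2 (chr12:26456538-26456597, - strand): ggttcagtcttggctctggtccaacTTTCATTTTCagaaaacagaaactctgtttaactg
Bst2 (chr8:71537562-71537627, - strand): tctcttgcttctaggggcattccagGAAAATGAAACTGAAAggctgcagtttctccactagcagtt
Ifit1 held 2 matches, which began 104 and 85 bases before the annotated start of transcription. The stretches of Ifit3 and Ifit3b were the same letter for letter over 94 bases, with 2 matches each. In Isg15 3 matches overlapped in 1 run, and in Bst2 2 matches overlapped. A promoter window of 300 bases (250 before to 50 after the start) was at hand for 38 of the 49 members, and 11 had no entry. The core was present in 18 of these 38 members (47.4%), against 1079 of all 27025 genes with a promoter (3.99%). It was in 7 of 13 members with every R6/2 library above every control (53.8%) and in 11 of 25 members whose groups overlapped (44.0%). The gamma-activated sequence, TTC, any 3 bases and GAA, which reads the same on both strands, was in 9 of the 38 (23.7%), against 2582 of the 27025 (9.55%). A match is a description of the letters and not evidence that a factor binds there.

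For the libraries as a whole, the low values of genes with 1 annotated transcript fell on steps of whole fragments for 2247 of 2798 such genes (80.3%, within 0.01 fragment), which gave scaled totals of 5867628 to 11801004 fragments per library. Any scaling between libraries by the authors is included in those totals. As a check of the tissue, 10 of 10 markers of spiny projection neurons, the main striatal cell type, were well expressed in controls, with summed levels of 1668 to 2117 FPKM, and all 10 were lower in R6/2, with sums of 221 to 362 FPKM. Summed markers of cortical excitatory neurons, which mark tissue from outside the striatum, ranged from 25.7 to 56.2 FPKM in controls and from 54.9 to 95.7 FPKM in R6/2. Choroid plexus markers summed to between 13.9 and 544 FPKM in controls and between 26.9 and 459 FPKM in R6/2. In bulk tissue, fewer cells of a type and less RNA per cell cannot be told apart.

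Most members had higher means in R6/2 striatum, and the called members with the largest log2 changes were Ifi27l2a, Oasl2, Ifi44, Ifit1, Rtp4, Ifit3, Lgals3bp and Ifi27, while Isg15, Irf9, Stat2, Mx1 and others showed no detectable rise. Over all 49 members the mean FPKM was higher in R6/2 for 43 and lower for 6, and the median log2 change was 0.37, where the median over all genes with a value above 0 was -0.0039. Log2 changes are R6/2 minus control on the scale of log2(FPKM + 1), on which the changes of low genes come out too small. In 17 of the 49, all 5 R6/2 values lay above all 5 control values, and in 0 did all lie below. Over all genes with a value above 0, 2.88% had every R6/2 library above and 5.29% every R6/2 library below. Since the members were chosen with earlier results of these data known, these shares describe the list and do not test it.

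Two-sided tests were run with limma, a linear model fitted across the whole table, on the 15905 genes that averaged at least 1 FPKM, with Benjamini-Hochberg adjustment over all of them and a threshold of 0.05. Of the 49 members, 29 reached that mean, and 14 were called higher, 0 lower and 15 not called, beside 5.00% of all tested genes called higher and 9.11% called lower. At an unadjusted p under 0.05, limma had 18 members higher and 0 lower. The share of all tested genes at that threshold was not counted. This count and later ones at an unadjusted p therefore have no background beside them and are descriptions only. Of all calls 64.6% were lower, which became 53.5% after quantile normalization and 42.7% with protein-coding genes rescaled to 1 total. Members called higher were then 17 and 16, with 0 lower, while all genes called higher went from 795 to 1111 and 1520. Among the 29, 12 reached the filter only through their level in R6/2, so counts over the tested members are not evidence of a rise. The other 17 had a control mean of at least 1 FPKM, and 6 of these were called higher: Oasl2, Ifitm3, Ifi27, Parp12, Xaf1 and Lgals3bp. With no filter, which takes in all 49, 15 members were called higher and 0 lower, beside 2.18% of 29024 genes called higher and 4.61% called lower. Of the 20 members under 1 FPKM, 3 had groups that did not overlap, Parp14, Dtx3l and Ddx60, beside 0.922% of all genes under 1 FPKM.

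**Figure D1:**
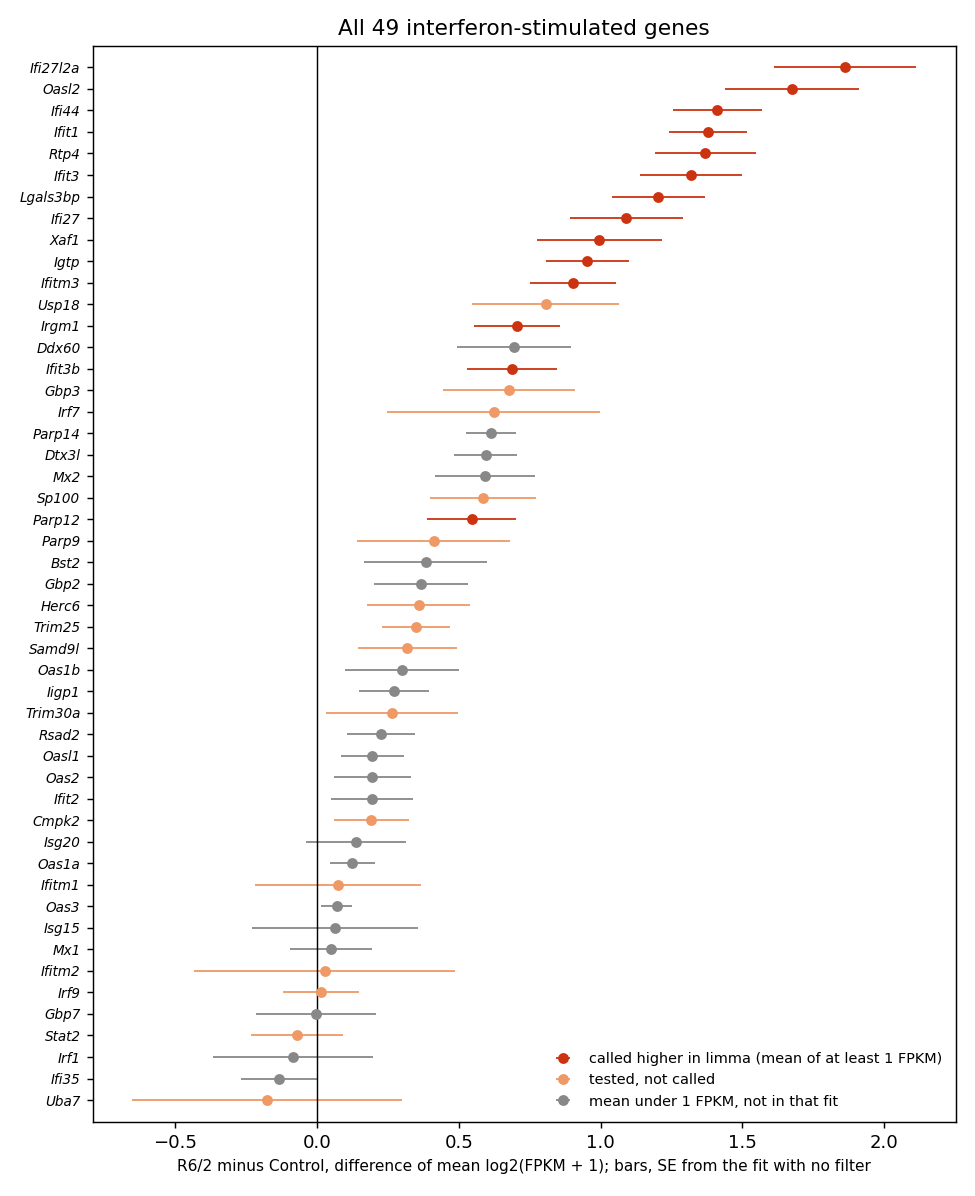
Difference of mean log2(FPKM + 1), R6/2 minus control, for each of the 49 genes (horizontal axis, log2 units; bars, SE from the limma fit with no filter), ordered by size, with 5 libraries per group. Red points are the 14 genes called higher in the fit on genes of at least 1 FPKM, orange points the 15 tested and not called, and grey points the 20 under that mean; 44 points lie right of 0 (Isg15 among them on this scale, although its mean FPKM was lower in R6/2), and the largest is Ifi27l2a at 1.86.

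Upstream of the members, Jak2 fell and 0 of 5 receptor genes tested were called. Of 12 interferon genes examined, 11 were listed at 0 FPKM in all 10 libraries, among them Ifnb1 and Ifng, and the keratinocyte interferon gene Ifnk had means of 0.169 and 0.253 FPKM in control and R6/2. An exact 0 can be a failed estimate as well as an absence of fragments. At an unadjusted p under 0.05, limma also had 0 receptor genes. Ifnar1 had means of 8.82 and 9.23 FPKM (log2 change 0.082), Ifnar2 of 8.0 and 8.03 FPKM (0.023), Ifngr1 of 4.06 and 4.68 FPKM (0.091), Ifngr2 of 2.74 and 3.35 FPKM (0.13) and Il10rb of 1.3 and 0.849 FPKM (-0.36), with limma adjusted p from 0.386 to 0.958. The small changes of Ifnar2, Ifngr1 and Ifngr2 turned negative under some of the settings tried.

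Jak2, the kinase of the interferon-gamma receptor, was at 9.57, 9.7, 10.9, 8.93 and 10.6 FPKM in Controls 1 to 5 and at 6.63, 6.94, 7.41, 7.28 and 5.57 FPKM in R6/2 1 to 5, with every R6/2 library below every control. Its mean fell from 9.93 ± 0.788 FPKM to 6.76 ± 0.734 FPKM (SD over 5 libraries, adjusted p in limma = 0.00519, log2 change -0.50 with SE 0.0889). Jak2 did not pass with the level of the cortical markers in the model, where its log2 change was -0.49 (limma adjusted p = 0.0665). Jak1 had means of 19.2 and 22.3 FPKM (log2 change 0.21, limma adjusted p = 0.148), and passed only with protein-coding genes rescaled to 1 total (0.0316). Tyk2 had means of 1.12 and 1.15 FPKM (0.026) and Stat3 of 11.2 and 11 FPKM (-0.01), with limma adjusted p of 0.945 and 0.991. Of 8 regulators tested, which include the Pias genes and the phosphatase genes Ptpn6 and Ptpn11, 0 were called by limma in either direction, and 1 was lower at an unadjusted p under 0.05, Ptpn11.

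**Figure D2:**
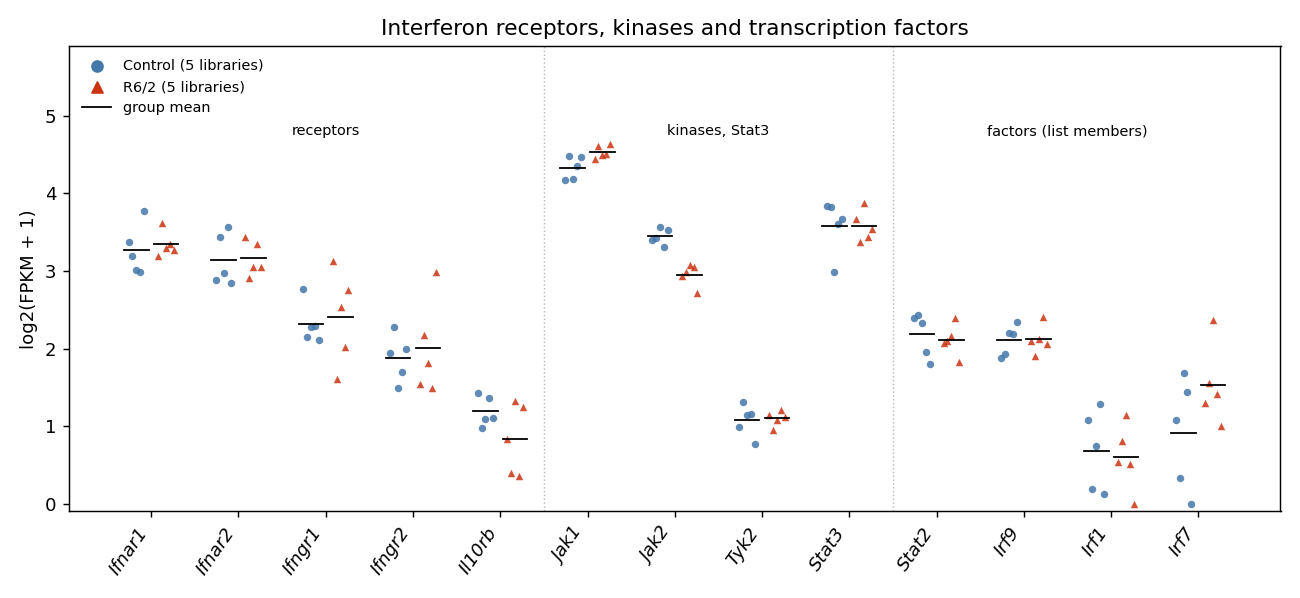
FPKM on a log2(FPKM + 1) scale (vertical axis) of 5 receptor genes, Jak1, Jak2, Tyk2, Stat3 and the 4 transcription factor members; each point is 1 library, blue circles control and red triangles R6/2, and lines are means of the log2 values. Jak2 is the gene shown whose groups do not overlap: it lies between 5.57 and 7.41 FPKM in R6/2 against 8.93 to 10.9 FPKM in control.

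Of the transcription factor members, Stat2, Irf9, Irf1 and Irf7, all but Irf1 were tested. Of these 3, 0 were called by limma, and 0 had an unadjusted p under 0.05. Stat2 was at 4.27, 4.41, 4.01, 2.87 and 2.47 FPKM in Controls 1 to 5 and at 3.2, 3.29, 3.47, 4.24 and 2.55 FPKM in R6/2 1 to 5, and the groups overlapped throughout. Irf9, the DNA-binding partner of Stat2, was at 2.68, 2.81, 3.58, 3.54 and 4.05 FPKM in Controls 1 to 5 and at 3.3, 2.73, 3.36, 4.33 and 3.16 FPKM in R6/2 1 to 5, also with overlap. The log2 change was -0.072 for Stat2 (SE 0.156) and 0.014 for Irf9 (SE 0.127), with limma adjusted p of 0.814 and 0.967. Irf1, a factor induced by interferon-gamma, had a mean under 1 FPKM and stood at 1.12, 0.14, 0.678, 1.43 and 0.0882 FPKM in Controls 1 to 5 and at 0.458, 0.755, 1.2, 0.423 and 0 FPKM in R6/2 1 to 5. It was listed at 0 in R6/2 5 and varied more within each group than between them. Irf7, which amplifies the type I response, was at 1.12, 0.258, 2.22, 1.71 and 0 FPKM in Controls 1 to 5 and at 1.46, 1.94, 4.16, 1.68 and 1.01 FPKM in R6/2 1 to 5. R6/2 3 was the highest and Control 5 was listed at 0, and the other 8 libraries overlapped. Its log2 change of 0.62 did not pass (SE 0.375, limma adjusted p = 0.324).

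The Ifit genes, whose proteins bind foreign RNA and block its translation, rose in 3 of 4 cases. All 4 lie within 1 cluster on chromosome 19, in the order Ifit2, Ifit3, Ifit3b and Ifit1, with gaps of 7.11, 19.2 and 27.5 kb. Ifit1 (ENSMUSG00000034459.8, GRCm38 chromosome 19, 34640871 to 34650009, + strand) was at 0.429, 0.428, 0.611, 0.239 and 0.47 FPKM in Controls 1 to 5 and at 2.04, 2.78, 2.72, 3.57 and 2.64 FPKM in R6/2 1 to 5. The lowest R6/2 library was well above the highest control, and R6/2 4 was the highest of all. On average it rose from 0.435 ± 0.133 FPKM to 2.75 ± 0.547 FPKM (SD over 5 libraries, adjusted p in limma = 0.000328, log2 change 1.38 with SE 0.153). These values correspond to 9, 8, 13, 4 and 7 fragments in Controls 1 to 5 and to 59, 40, 57, 68 and 49 in R6/2 1 to 5, a ratio of 6.05 (95% interval 4.35 to 8.62) once the totals are taken into account. Throughout, intervals from fragments are exact (Clopper-Pearson) and cover counting error only, with the libraries of a group summed.

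Ifit3 (ENSMUSG00000074896.3, GRCm38 chromosome 19, 34583531 to 34588731, + strand) was at 0.379, 0.51, 0.448, 0.855 and 1.07 FPKM in Controls 1 to 5 and at 2.09, 3.32, 3.8, 2.59 and 3.86 FPKM in R6/2 1 to 5, again without overlap. Its mean rose from 0.652 ± 0.296 FPKM to 3.13 ± 0.772 FPKM (SD over 5 libraries, adjusted p in limma = 0.0012, log2 change 1.32 with SE 0.183), and fragments gave a ratio of 4.9 (95% interval 3.42 to 7.2). Ifit3b (ENSMUSG00000062488.9, GRCm38 chromosome 19, 34607970 to 34613401, + strand), its near copy, was at 0.521, 0.949, 0.321, 0.897 and 0.733 FPKM in Controls 1 to 5 and at 1.51, 1.14, 1.7, 2.15 and 2.06 FPKM in R6/2 1 to 5. The groups did not overlap, with R6/2 2 only slightly above Control 2, which had 12 and 13 fragments in libraries of different depth. The rise from 0.684 ± 0.263 FPKM to 1.71 ± 0.413 FPKM was smaller (SD over 5 libraries, adjusted p in limma = 0.0337, log2 change 0.69 with SE 0.184). It did not pass with the cortical marker level in the model (log2 change 0.55, limma adjusted p = 0.298). Of the 50-base words of the longest transcript, 51.2% of those of Ifit3 and 44.5% of those of Ifit3b occur in the other gene, so how fragments were divided between them is uncertain. Ifit2, which lies beside Ifit3, had means of 0.634 and 0.87 FPKM and overlapping groups (log2 change 0.19, limma adjusted p = 0.549 with no filter). The core motif was not found in its promoter windows. It was also not found in those of Oasl2, Ifi44, Lgals3bp, Xaf1 and Parp12, which were called higher.

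Among the oligoadenylate synthetases, which make the messenger that activates the antiviral nuclease RNase L, and their relatives, Oasl2 rose and the other 5 members had means under 1 FPKM in both groups. Oasl2 (ENSMUSG00000029561.17, GRCm38 chromosome 5, 114896936 to 114912234, + strand) was at 1.73, 3.15, 2.9, 0.968 and 3.85 FPKM in Controls 1 to 5 and at 9.35, 10.5, 8.55, 11.8 and 8.57 FPKM in R6/2 1 to 5. Control 5 was the highest control and still lay well below R6/2 3, the lowest of its group. In the mean this was a rise from 2.52 ± 1.16 FPKM to 9.76 ± 1.4 FPKM (SD over 5 libraries, adjusted p in limma = 0.00118, log2 change 1.67 with SE 0.232). Its neighbour Oasl1, 11.0 kb away on chromosome 5, corresponded to 0, 0, 1, 0 and 0 fragments in Controls 1 to 5 and to 0, 1, 4, 8 and 0 in R6/2 1 to 5. The 2 highest libraries were thus R6/2 3 and R6/2 4, and 2 R6/2 libraries had 0 fragments, so the groups overlapped (ratio 11.8 (95% interval 1.77 to 502)). Oas1a, Oas1b, Oas2 and Oas3 form another cluster on chromosome 5, and their R6/2 means were 0.131, 0.634, 0.344 and 0.0604 FPKM, against 0.0311, 0.329, 0.17 and 0.00729 FPKM in controls. All 4 had overlapping groups, and 0 passed in the limma fit with no filter (adjusted p from 0.462 to 0.575). Oas1a shares 57.6% of its 50-base words with Oas1g, and Oas1b is annotated as a polymorphic pseudogene.

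The Isg15 system attaches the ubiquitin-like protein Isg15 to other proteins. Of its 5 members 4 were tested, and 0 of these were called by limma, with 2 higher at an unadjusted p under 0.05, Usp18 and Trim25. The gene Isg15 averaged under 1 FPKM and was not in that fit. Isg15 itself (ENSMUSG00000035692.6, GRCm38 chromosome 4, 156199424 to 156200818, - strand) was at 1.69, 0, 0.209, 1.59 and 0.596 FPKM in Controls 1 to 5 and at 0.46, 0.926, 0.848, 0.466 and 1.2 FPKM in R6/2 1 to 5. The 2 highest values were Controls 1 and 4, and Control 2 was listed at 0. This corresponded to 8, 0, 1, 6 and 2 fragments in Controls 1 to 5 and to 3, 3, 4, 2 and 5 in R6/2 1 to 5, a ratio of 0.909 (95% interval 0.436 to 1.89). At this depth the interval holds both a fall and a rise. The ratio of 6.05 for Ifit1 lies outside it, but the interval leaves out the spread between libraries, from 0 to 8 fragments in controls. It therefore cannot exclude a rise of a given size. Usp18, the protease that removes Isg15 and also dampens the type I receptor, was at 0.628, 0.955, 0.935, 0.0935 and 0.321 FPKM in Controls 1 to 5 and at 3.17, 2.07, 0.747, 1.27 and 1.86 FPKM in R6/2 1 to 5. R6/2 1 was the highest and R6/2 3 lay within the control range. Its mean of 0.586 and 1.82 FPKM in control and R6/2 gave a log2 change of 0.81 that did not pass (SE 0.275, limma adjusted p = 0.0849). It passed without R6/2 3 (limma adjusted p = 0.0357) and after quantile normalization (0.0487).

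Trim25, a ubiquitin ligase of the RNA-sensing pathway, was at 2.11, 1.88, 2.21, 1.67 and 2.0 FPKM in Controls 1 to 5 and at 3.21, 3.18, 2.39, 2.97 and 2.26 FPKM in R6/2 1 to 5. Every R6/2 library was above every control, by a small margin in R6/2 5. Its log2 change of 0.35 did not pass (SE 0.113, limma adjusted p = 0.0709). It passed without R6/2 5 (limma adjusted p = 0.0404), after quantile normalization (0.0335) and after rescaling of protein-coding genes (0.0297). Uba7, the enzyme that activates Isg15, had means of 2.55 and 2.05 FPKM with a wide spread in both groups (log2 change -0.18). Herc6, its ligase in mice, had means of 1.93 and 2.74 FPKM (log2 change 0.36, limma adjusted p = 0.229).

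Of 4 membrane proteins that hinder virus entry or release, 3 were tested and Ifitm3 rose. Ifitm3 (ENSMUSG00000025492.6, GRCm38 chromosome 7, 141009586 to 141010770, - strand) was at 9.86, 11.3, 12.1, 15.1 and 12.1 FPKM in Controls 1 to 5 and at 17.9, 22.3, 23.7, 22.8 and 32 FPKM in R6/2 1 to 5. R6/2 5 was the highest and R6/2 1, the lowest of its group, was above Control 4, the highest control. The mean rose from 12.1 ± 1.92 FPKM to 23.7 ± 5.15 FPKM (SD over 5 libraries, adjusted p in limma = 0.00367, log2 change 0.90 with SE 0.152), and fragments gave a ratio of 1.93 (95% interval 1.64 to 2.28). The call was lost with the cortical marker level in the model (log2 change 0.79, limma adjusted p = 0.0718). Its relatives Ifitm1 and Ifitm2, which lie on the same side of it on chromosome 7, the nearer at 39.8 kb, had means of 1.25 and 1.34 FPKM and of 2.3 and 2.4 FPKM. Their groups overlapped, with limma adjusted p of 0.911 and 0.984. Ifitm2 gave a fragment ratio of 0.985 (95% interval 0.61 to 1.59), and 48.5% of its 50-base words occur in other genes. Bst2, the tetherin gene, corresponded to 0, 2, 0, 2 and 2 fragments in Controls 1 to 5 and to 2, 3, 6, 1 and 4 in R6/2 1 to 5 (ratio 2.42 (95% interval 0.901 to 7.56)), too few to separate the groups.

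Interferon-induced GTPases attack the compartments of intracellular pathogens or block viral cores. Of 8 members 3 were tested, all of which reached the filter only through their level in R6/2. Of these 3, 2 were called, Igtp and Irgm1 of the immunity-related GTPase family, and Gbp3 was not. Mx1, Mx2, Gbp2, Gbp7 and Iigp1 averaged under 1 FPKM and were not in that fit. Igtp (ENSMUSG00000078853.8, GRCm38 chromosome 11, 58199556 to 58207591, + strand) was at 0.87, 0.503, 0.57, 0.281 and 0.316 FPKM in Controls 1 to 5 and at 2.15, 2.3, 1.61, 2.05 and 1.44 FPKM in R6/2 1 to 5. All R6/2 libraries lay above Control 1, the highest control. On average it rose from 0.508 ± 0.236 FPKM to 1.91 ± 0.37 FPKM (SD over 5 libraries, adjusted p in limma = 0.00596, log2 change 0.95 with SE 0.175). Its annotated exons overlap those of Irgm2, and 12.3% of its 50-base words occur there. Irgm1 (ENSMUSG00000046879.6, GRCm38 chromosome 11, 48861968 to 48871683, - strand), a regulator of the same family, was at 0.548, 0.674, 0.544, 0.955 and 0.608 FPKM in Controls 1 to 5 and at 1.12, 1.86, 2.4, 1.94 and 1.38 FPKM in R6/2 1 to 5. The groups did not overlap, although R6/2 1 was close to Control 4. Its mean rose from 0.666 ± 0.17 FPKM to 1.74 ± 0.503 FPKM (SD over 5 libraries, adjusted p in limma = 0.0262, log2 change 0.70 with SE 0.177). Irgm1 did not pass with the cortical marker level in the model (log2 change 0.47, limma adjusted p = 0.316).

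The guanylate-binding and Mx genes overlapped between groups. Gbp3 had means of 0.642 and 1.64 FPKM (log2 change 0.68, limma adjusted p = 0.111), Gbp2 of 0.302 and 0.705 FPKM and Gbp7 of 0.656 and 0.654 FPKM. For Gbp2, fragments gave a ratio of 2.24 (95% interval 1.4 to 3.68), with R6/2 3 and R6/2 5 inside the control range in FPKM. Mx2 was at 0.315, 0.342, 0.052, 0.329 and 0 FPKM in Controls 1 to 5 and at 0.268, 0.921, 1.35, 0.575 and 1.13 FPKM in R6/2 1 to 5, higher in 4 R6/2 libraries than in any control and within the control range in R6/2 1. It had a limma adjusted p of 0.0868 in the fit with no filter and is annotated as a polymorphic pseudogene. Mx1 had means of 0.184 and 0.21 FPKM, and Iigp1 of 0.147 and 0.403 FPKM.

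Of 5 members that act in mitochondria or on nucleotides, 3 were tested and 2 rose, both of the Ifi27 family. Ifi27 (ENSMUSG00000064215.13, GRCm38 chromosome 12, 103434211 to 103440239, + strand), a small membrane protein of mitochondria and the nuclear envelope, was at 19.3, 23.8, 11.3, 21.1 and 14.6 FPKM in Controls 1 to 5 and at 31, 42.9, 32.8, 41.7 and 45.3 FPKM in R6/2 1 to 5. It had the highest level of all 49 members in both groups, and every R6/2 library exceeded Control 2, the highest control. In the mean this was a rise from 18 ± 5.04 FPKM to 38.7 ± 6.39 FPKM (SD over 5 libraries, adjusted p in limma = 0.00551, log2 change 1.09 with SE 0.198), a call lost with the cortical marker level in the model (log2 change 0.88, limma adjusted p = 0.104). Its paralog Ifi27l2a (ENSMUSG00000079017.3, GRCm38 chromosome 12, 103442167 to 103443680, - strand) lies 1.93 kb away on the other strand. Ifi27l2a was at 1.96, 4.6, 4.06, 1.49 and 3.56 FPKM in R6/2 1 to 5, at 0.505 FPKM in Control 2, and the other 4 controls had it listed at 0. In fragments this was 1 in all controls together and 6, 7, 9, 3 and 7 in R6/2 1 to 5, a ratio of 29.1 (95% interval 4.86 to 1184). It had the largest log2 change of the 49 (1.86, SE 0.267, limma adjusted p = 0.00142), a size that depends on the pseudocount and ran from 0.66 with 5 FPKM to 4.38 with 0.1 FPKM.

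Rsad2, which encodes viperin, and Cmpk2, a nucleotide kinase, lie 12.8 kb apart on chromosome 12 on opposite strands. Rsad2 corresponded to 11, 11, 14, 7 and 10 fragments in Controls 1 to 5 and to 15, 20, 14, 14 and 26 in R6/2 1 to 5, with R6/2 2, 4 and 5 above every control in FPKM and R6/2 1 and 3 among them. Its fragment ratio was 1.53 (95% interval 1.07 to 2.19), and it did not pass in the limma fit with no filter (adjusted p = 0.372). Cmpk2 was at 3.36, 3.28, 2.27, 2.3 and 2.09 FPKM in Controls 1 to 5 and at 3.57, 2.9, 3.05, 2.88 and 3.31 FPKM in R6/2 1 to 5, with overlapping groups. Its means of 2.66 and 3.14 FPKM gave a fragment ratio of 1.18 (95% interval 1.02 to 1.38) and a limma adjusted p of 0.369, so the counting interval lies just above equal levels while the spread between libraries does not separate the groups. The exonuclease gene Isg20 had means of 0.361 and 0.465 FPKM.

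All 4 members of the ADP-ribosylation group had higher means in R6/2, and 3 had groups that did not overlap. Parp14 was at 0.477, 0.329, 0.353, 0.345 and 0.32 FPKM in Controls 1 to 5 and at 1.07, 1.24, 0.881, 1.3 and 0.978 FPKM in R6/2 1 to 5. Its groups did not overlap, and its mean over all libraries was under 1 FPKM. In the limma fit with no filter it rose from 0.365 ± 0.0642 FPKM to 1.09 ± 0.174 FPKM (SD over 5 libraries, adjusted p in limma with no filter = 0.00277, log2 change 0.61 with SE 0.088). Dtx3l, the ubiquitin ligase that works in a complex with Parp9, was at 0.321, 0.36, 0.564, 0.267 and 0.343 FPKM in Controls 1 to 5 and at 0.793, 0.819, 1.33, 1.15 and 1.3 FPKM in R6/2 1 to 5. It too rose in that fit, from 0.371 ± 0.113 FPKM to 1.08 ± 0.257 FPKM (SD over 5 libraries, adjusted p in limma with no filter = 0.012, log2 change 0.59 with SE 0.111). Parp9 had means of 0.724 and 1.37 FPKM with overlapping groups (log2 change 0.41, limma adjusted p = 0.412). Parp9 and Dtx3l overlap by 0.681 kb at their starts on opposite strands of chromosome 16, and the strand setting of the counting is not given, so fragments there cannot be told apart.

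Parp12 (ENSMUSG00000038507.6, GRCm38 chromosome 6, 39086410 to 39118349, - strand), a mono-ADP-ribosyltransferase, was at 1.74, 3.01, 1.65, 2.51 and 2.29 FPKM in Controls 1 to 5 and at 3.63, 4.73, 3.07, 3.06 and 4.07 FPKM in R6/2 1 to 5. The groups did not overlap, but R6/2 4, the lowest of its group, was only just above Control 2. The mean rose from 2.24 ± 0.564 FPKM to 3.71 ± 0.708 FPKM (SD over 5 libraries, adjusted p in limma = 0.0381, log2 change 0.55 with SE 0.15). This was the weakest of the 14 calls: it was lost without Control 1, 3, 4 or 5 and without R6/2 1, 2 or 5 (limma adjusted p from 0.0561 to 0.0855), with no filter on low values (0.0743) and with the cortical marker level in the model (0.408, log2 change 0.33).

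Among the remaining 9 members, 7 were tested and 4 of these rose. Ifi44 (ENSMUSG00000028037.13, GRCm38 chromosome 3, 151730922 to 151749960, - strand), a cytoplasmic protein, was at 0.966, 0.679, 0.473, 0.271 and 0.426 FPKM in Controls 1 to 5 and at 2.98, 3.84, 2.83, 2.48 and 3.56 FPKM in R6/2 1 to 5. The highest control, Control 1, lay well under the lowest R6/2 library, R6/2 4. On average it rose from 0.563 ± 0.269 FPKM to 3.14 ± 0.553 FPKM (SD over 5 libraries, adjusted p in limma = 0.000398, log2 change 1.41 with SE 0.162). Rtp4 (ENSMUSG00000033355.5, GRCm38 chromosome 16, 23520291 to 23614222, + strand), a chaperone for receptors on their way to the cell surface, corresponded to 6, 4, 8, 3 and 6 fragments in Controls 1 to 5 and to 55, 36, 24, 26 and 27 in R6/2 1 to 5. Its mean rose from 0.522 ± 0.175 FPKM to 3.0 ± 0.964 FPKM (SD over 5 libraries, adjusted p in limma = 0.00102, log2 change 1.37 with SE 0.185), with a fragment ratio of 5.66 (95% interval 3.75 to 8.84). All R6/2 libraries of Rtp4 lay above all controls. Of its 50-base words 13.6% occur in Gm45338, an overlapping gene model on the same strand.

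Lgals3bp (ENSMUSG00000033880.11, GRCm38 chromosome 11, 118392751 to 118402092, - strand), a secreted galectin-binding glycoprotein, was at 6.07, 10.8, 7.19, 5.76 and 5.07 FPKM in Controls 1 to 5 and at 16.7, 17.3, 17.9, 15 and 17.5 FPKM in R6/2 1 to 5. The R6/2 libraries lay close together, and Control 2 stood above the other controls but below all of them. In the mean this was a rise from 6.98 ± 2.28 FPKM to 16.9 ± 1.15 FPKM (SD over 5 libraries, adjusted p in limma = 0.00108, log2 change 1.20 with SE 0.165). Xaf1 (ENSMUSG00000040483.15, GRCm38 chromosome 11, 72301629 to 72313733, + strand), which promotes apoptosis, was at 2.72, 3.93, 4.79, 3.15 and 7.52 FPKM in Controls 1 to 5 and at 7.18, 9.81, 11.2, 9.08 and 9.85 FPKM in R6/2 1 to 5. It was the 1 called member whose groups overlapped, since Control 5 exceeded R6/2 1. The mean rose from 4.42 ± 1.9 FPKM to 9.43 ± 1.48 FPKM (SD over 5 libraries, adjusted p in limma = 0.0134, log2 change 1.00 with SE 0.215). The call was lost with the cortical marker level in the model (log2 change 0.85, limma adjusted p = 0.171).

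The helicase-like gene Ddx60 was at 0, 0.113, 0.18, 0.153 and 0.0285 FPKM in Controls 1 to 5 and at 0.523, 0.444, 0.625, 2.13 and 0.551 FPKM in R6/2 1 to 5. Every R6/2 library was above every control, and R6/2 4 stood far above the rest: the R6/2 mean was 0.854 FPKM with it and 0.536 FPKM without it. Ddx60 did not pass in the limma fit with no filter (adjusted p = 0.0767). Sp100, a component of nuclear bodies, had means of 2.3 and 3.98 FPKM (log2 change 0.58, limma adjusted p = 0.0598), and R6/2 2 lay inside the control range. Samd9l had means of 1.77 and 2.43 FPKM, Trim30a of 0.936 and 1.27 FPKM and Ifi35 of 0.46 and 0.342 FPKM, all with overlapping groups.

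**Figure D3:**
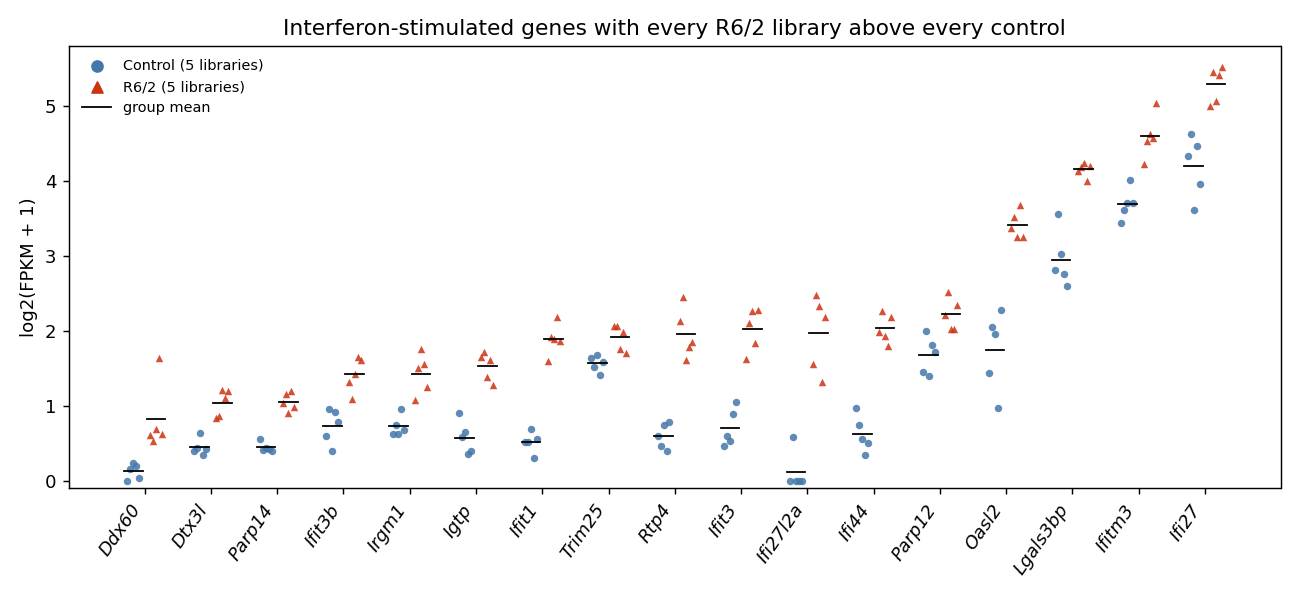
Levels of the 17 members in which every R6/2 library lay above every control, on a log2(FPKM + 1) scale (vertical axis); each point is 1 library, blue circles control and red triangles R6/2, with lines at the means of the log2 values. The genes span from Ddx60, with a control mean of 0.0950 FPKM, to Ifi27, at 18.0 ± 5.04 FPKM in control and 38.7 ± 6.39 FPKM in R6/2.

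A further list held 54 interferon-induced genes that are not members, 53 of them with a value above 0. Of the 21 tested, 2 were called higher by limma and 0 lower, beside 5.00% and 9.11% of all tested genes. At an unadjusted p under 0.05, 3 were higher and 1 lower. In 3 of the 54 every R6/2 library lay above every control, and in 1 every R6/2 library lay below. Over all genes with a value above 0 these shares were 2.88% and 5.29%. Their median log2 change was 0.05, beside 0.37 for the members. Of the 54, 33 averaged under 1 FPKM, where changes on this scale come out too small, as did 20 of the 49 members. Both lists were chosen with earlier results of these data known, so the 2 medians describe the lists and their difference was not tested. Irgm2, a GTPase beside Igtp, was at 0.909, 0.805, 0.46, 1.31 and 0.657 FPKM in Controls 1 to 5 and at 1.69, 2.83, 1.55, 2.26 and 1.7 FPKM in R6/2 1 to 5, without overlap, and rose from 0.827 ± 0.316 FPKM to 2.01 ± 0.533 FPKM (SD over 5 libraries, adjusted p in limma = 0.0264, log2 change 0.72 with SE 0.181). It was lost with the cortical marker level in the model (log2 change 0.59, limma adjusted p = 0.259). Rnf213, a giant ubiquitin ligase, was at 0.631, 0.71, 1.76, 1.52 and 1.69 FPKM in Controls 1 to 5 and at 2.17, 2.38, 3.48, 2.47 and 2.26 FPKM in R6/2 1 to 5. On average it rose from 1.26 ± 0.549 FPKM to 2.55 ± 0.531 FPKM (SD over 5 libraries, adjusted p in limma = 0.0452, log2 change 0.68 with SE 0.194), but the call was lost without Control 1, 2 or 4 or without any of the 5 R6/2 libraries (limma adjusted p from 0.0562 to 0.0885). Ifi204 was the third gene with all R6/2 libraries above, at means of 0.0289 and 0.314 FPKM, and Znfx1 the gene with all below, at 8.66 and 6.22 FPKM (log2 change -0.40, limma adjusted p = 0.0538). The chemokine gene Cxcl10 had means of 0.0553 and 0.225 FPKM. The core motif of the response element was in 22 of 43 genes with a promoter (51.2%).

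Members that lie side by side in the genome did not all have the same call. On chromosome 19, Ifit3, Ifit3b and Ifit1 rose while Ifit2 next to them did not pass, and on chromosome 12 both Ifi27 and Ifi27l2a rose. On chromosome 5 Oasl2 rose, and Oasl1 stayed at or under 8 fragments in every library. In the chromosome 7 cluster Ifitm3 rose and Ifitm1 and Ifitm2 did not pass. The differences between neighbours in their change were not tested.

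In the single libraries, the mean log2(FPKM + 1) over the 49 members lay between 0.95 and 1.03 for controls and between 1.41 and 1.56 for R6/2, so the groups were apart and R6/2 1 was the lowest of its group. Over the 32 members whose own groups overlapped, the mean lay between 0.80 and 0.92 for controls and between 1.02 and 1.17 for R6/2. Between 5 and 7 members were listed at 0 in each control and between 0 and 4 in each R6/2 library. Summed member FPKM ran from 75.0 to 95.9 in controls and from 146 to 186 in R6/2.

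Levels of cell type markers are given beside these values. Of 15 microglia markers, 14 had lower means in R6/2, 2 fell (P2ry12 and P2ry13) and 0 rose, and their sum was 88.1 to 102 FPKM in controls and 75.5 to 79.8 FPKM in R6/2. Endothelial markers summed to between 43.1 and 52.6 FPKM in controls and between 41.0 and 48.6 FPKM in R6/2, with 0 of 8 called by limma and 0 at an unadjusted p under 0.05. Of 8 astrocyte markers 2 fell, with sums of 860.4 to 1074 and 645 to 765 FPKM. T and NK cell markers were near 0 in both groups (sums of 0.0594 to 0.607 and 0 to 0.354 FPKM), and Cd3g, Nkg7, Gzma and Klrd1 were listed at 0 in every library. Neutrophil and monocyte markers summed to 0.322 to 3.15 FPKM in controls and 0.0641 to 2.14 FPKM in R6/2, and red blood cell markers to 24.7 to 41.9 and 10.2 to 20.7 FPKM, with 2 of 5 lower. Of the markers tested, 12 for microglia and 6 for astrocytes were not called. Slc1a2 (means of 392 and 212 FPKM in control and R6/2) and Aldoc (500 and 418 FPKM) weighed most in the astrocyte sum. The members were higher in libraries whose microglia, astrocyte and red blood cell sums were lower and whose endothelial sums overlapped with those of controls. Whether the cell types present bear on the level of the members was not tested.

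Cortical neuron markers were the marker list that was higher in R6/2, with all 6 means higher. With their mean level in the limma model, 8 of the 14 called members still passed: Ifit1, Ifit3, Oasl2, Igtp, Ifi27l2a, Ifi44, Rtp4 and Lgals3bp, with adjusted p from 0.00636 to 0.0363. In the same model 164 of all tested genes were higher. Of the 8, Oasl2 and Lgals3bp had a control mean of at least 1 FPKM. The other genes reached the filter only through their level in R6/2. The part of tissue from outside the striatum in the single genes that lost their call was not tested.

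**Figure D4:**
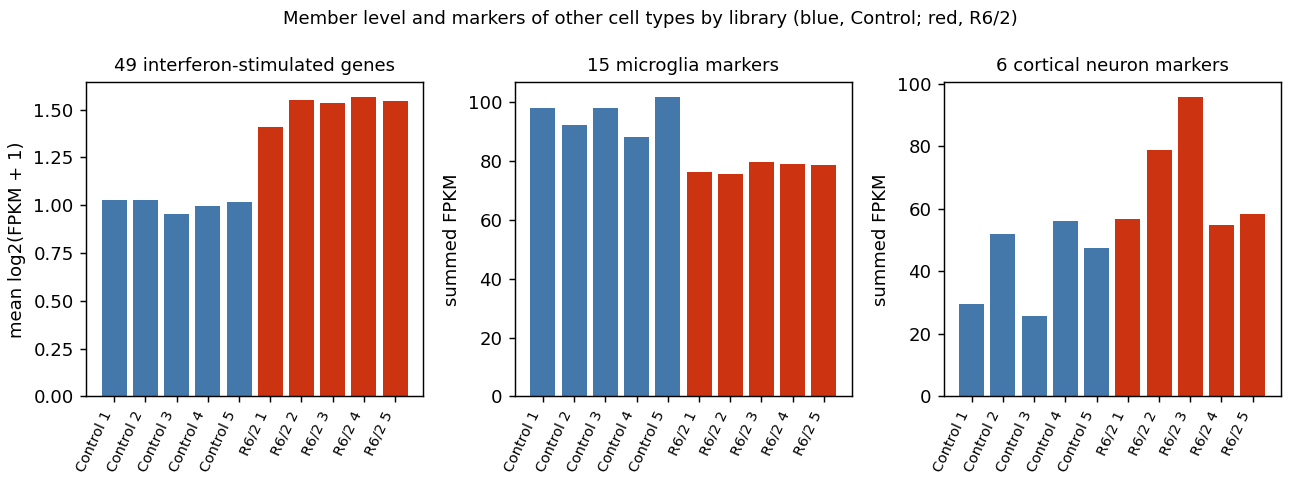
Bars give, for each of the 10 libraries (blue, control; red, R6/2), the mean log2(FPKM + 1) over the 49 genes, the summed FPKM of 15 microglia markers and the summed FPKM of 6 cortical neuron markers; all vertical axes start at 0. The member mean separates the groups (0.95 to 1.03 against 1.41 to 1.56) while the microglia sum is lower in every R6/2 library.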

How the data were processed

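The data are 1 table of FPKM values that the authors deposited, with 1 column for each of the 10 libraries and 0 columns left without a sample. RNA extracted with a Qiagen RNeasy kit for lipid-rich tissue went through NuGEN Ovation RNA-Seq v2 amplification and a Nextera library step before Illumina HiSeq 2000 sequencing, per the labels' protocols. The submitters' processing notes name STAR 2.4.0, Cufflinks, Cuffdiff and build GRCm38. The sources used here do not state settings, annotation, strand or scaling between libraries.

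Ensembl IDs were matched to GENCODE symbols and positions (47220 of 47632, 39102 with the same version), and 17 members have an exon that overlaps another gene. limma 3.58.1 in R 4.3.3 tested log2(FPKM + 1) in genes that averaged at least 1 FPKM, with a mean-variance trend and empirical Bayes moderation, and the code was tested on simulated data. Since the labels do not name the animals, p-values measure the spread between these libraries, which may be partly technical. In each library the FPKM of a gene with 1 transcript was divided by the value of 1 fragment, with 204 bases taken off the transcript length, and 14 members came out as whole fragments whose implied length lay within 6% of an annotated transcript. A count test over the table was not run, because genes with several transcripts gave no whole fragments. Promoters were searched on both strands in RefSeq windows of 300 bases.

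The members, gene lists and tests were chosen with earlier results of these data known. Named with values in every library are members called by limma or with groups that did not overlap, and Stat2, Irf1, Irf7, Irf9, Isg15 and Usp18; other genes were named beside them after their values were seen, and some listed genes are not reported here. Alternatives were pseudocounts of 0.1 and 5 FPKM, no filter or a minimum mean of 5 FPKM, quantile normalization, rescaling of protein-coding genes to 1 total, no trend, a replicate block, the mean level of 6 cortical neuron markers as a covariate and leaving out each of the 10 libraries.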

Additional observations from a re-analysis of the deposited data

Results flagged for a closer look

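In 8 of 98 groups of 5 libraries, 1 library stood apart from the other 4 by Dixon's criterion of 0.71. Chance gives about 1 in 20 for normally distributed values, a rate that does not hold for FPKM with many values at 0. A group with 1 value above 0 is flagged by construction, as in the controls for Oas3, Oasl1 and Ifi27l2a. Ddx60 was at 2.13 FPKM in R6/2 4, and its R6/2 mean of 0.854 FPKM became 0.536 FPKM without that library. Ifi27l2a was at 0.505 FPKM in Control 2, from 1 fragment, and listed at 0 in the other controls. Parp14 was at 0.477 FPKM in Control 1, still below every R6/2 library. Gbp7 was at 1.4 FPKM in Control 5, and its control mean of 0.656 FPKM became 0.47 FPKM without it. Isg20 was at 0.183 FPKM in R6/2 3, the lowest of its group. Oas3 was at 0.0365 FPKM in Control 5 and at 0.226 FPKM in R6/2 3. Oasl1 was at 0.0599 FPKM in Control 3, from 1 fragment, and listed at 0 in the other controls.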

How the results depend on the processing

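The 14 members called higher became 5 with a minimum mean of 5 FPKM, which leaves fewer members to test, and 8 with the cortical marker level in the model, and were 13 to 15 when each library was left out. Members called lower were 0 under every setting run. The 795 genes called higher became 1520 after rescaling of protein-coding genes, 370 with the replicate block and 164 with the cortical covariate, with 576 (without Control 3) to 890 (without Control 5) on leaving out libraries. The 1449 genes called lower became 614 with that covariate and 1193 to 1518 on leaving out libraries. Except where the number of members tested falls by construction, the cause was not tested. The median log2 change of the 49 members, 0.37, was 0.85 and 0.15 with pseudocounts of 0.1 and 5 FPKM, which stretch or compress low values by construction, 0.43 after rescaling, and 0.33 (without Control 1) to 0.43 (without Control 2) on leaving out libraries. The 17 members with R6/2 above every control were 17 to 19 when libraries were left out. Genes that were not called changed sign: Stat2 to 0.017 on rescaling and 0.047 with the covariate, Stat3 to 0.10 on rescaling and 0.033 on quantile normalization, and Ifnar2 to -0.10 and Ifngr2 to -0.021 with the covariate. On leaving out libraries, the log2 change ran from -0.060 to 0.072 for Irf9, -0.051 to 0.13 for Ifnar2, -0.087 to 0.29 for Ifngr1, -0.12 to 0.25 for Ifngr2, -0.049 to 0.086 for Tyk2 and -0.16 to 0.059 for Stat3. Of the 14 calls, 8 held under all settings run in which the gene was tested. Of these 8, only Oasl2 and Lgals3bp had a control mean of at least 1 FPKM. The replicate numbers did not pair libraries, since deviations of same-numbered libraries correlated at -0.0528 to 0.0495. With the replicate number as a block, 12 members were called and Ifit3b, Irgm1, Irgm2 and Rnf213 did not pass (limma adjusted p = 0.109, 0.0889, 0.064 and 0.0663). Rnf213 also did not pass with a pseudocount of 0.1 FPKM, with no filter or with the covariate (0.0505, 0.077 and 0.322). At the totals given, genes of a few fragments, such as Isg15, Bst2 and Oasl1, allow wide ratios only.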
